A study of Mus musculus with 4 samples.

Results

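The comparison described here is between wild-type mouse Th2 cells kept in a long culture and wild-type Th2 cells at the end of a first, short culture. It was made over gene symbols: lines with the same symbol were summed, and a symbol was compared when its mean level in the 2 libraries was at least 1 FPKM (fragments scaled to transcript length and to the number of mapped fragments in the library). Of 23284 symbols, 10695 met this rule. Star (mean 1.0001 FPKM) and Txnrd3 (1.0006 FPKM) lay just inside it, and Fbxo24 (0.998 FPKM) just outside. Each side is 1 library, so no test between the cultures was possible, and every difference below is one between 2 libraries. In the text "higher" and "lower" mean higher or lower in the long culture.

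The series holds 4 RNA-seq libraries of C57BL/6 Th2 cells, 2 from wild-type cells and 2 from cells labelled Menin KO, 1 for each genotype and culture. Menin, encoded by Men1, is a nuclear scaffold protein that binds MLL histone methyltransferases. For the short culture, CD4 T cells from spleen received 15 ng/ml of IL-2 and 10 ng/ml of IL-4 during a stimulation of 5 days. The long culture is named a 3-week culture: it began with the same 5 days, went on for 2 days with no added cytokine, and ended with 5 days of restimulation on immobilized anti-TCR antibody in the presence of IL-2 and of antibody to IL-4. These steps add up to 12 days, and the labels do not say how the rest of the 3 weeks was spent. Time in culture, a further round of receptor stimulation, the removal of IL-4 and its blockade all differ between the 2 libraries and cannot be told apart. The cells are polarized in a dish and were not taken from an immune response, and how many mice gave cells to a library is not stated.

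Th2 cells are the helper T cells that answer to parasites and drive allergic inflammation. IL-4 acts through STAT6 to induce the transcription factor GATA3, and GATA3 opens the locus that holds the genes of IL-4, IL-13 and IL-5, the cytokines that switch B cells to IgE, stimulate mucus and airway smooth muscle, and feed eosinophils. A T cell that leaves the naive state after stimulation commonly loses a set of factors that keep it quiescent and recirculating, among them TCF-1 (Tcf7) and KLF2.

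The stretches directly upstream of 4 cytokine genes are shown because the results turn on them: the cytokines of the Th2 locus, and Lif. Each line gives the 250 bases before the start of the gene in RefSeq (GRCm38.p6), read 5′ to 3′ on the strand of the gene, with the base before the start counted as -1. The first is chr11:53634703-53634952 (Il13, minus strand), the second chr11:53720544-53720793 (Il5, plus strand), the third chr11:53618666-53618915 (Il4, minus strand) and the last chr11:4257318-4257567 (Lif, plus strand). Capitals mark matches to searched motifs: GATA in Il13 from -81, TCF/LEF from -242 and GATA from -72 in Il5, NF-Y from -117 in Il4, and AP-1 from -228 in Lif.
Il13: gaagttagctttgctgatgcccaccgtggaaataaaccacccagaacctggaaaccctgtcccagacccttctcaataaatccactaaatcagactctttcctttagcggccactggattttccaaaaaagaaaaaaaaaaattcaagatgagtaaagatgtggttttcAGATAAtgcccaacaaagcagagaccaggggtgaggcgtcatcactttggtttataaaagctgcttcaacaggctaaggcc
Il5: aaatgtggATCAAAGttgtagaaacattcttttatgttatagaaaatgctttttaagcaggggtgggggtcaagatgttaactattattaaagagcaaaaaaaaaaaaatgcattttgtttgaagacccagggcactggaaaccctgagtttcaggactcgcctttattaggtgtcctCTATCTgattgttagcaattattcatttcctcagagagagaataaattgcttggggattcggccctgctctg
Il4: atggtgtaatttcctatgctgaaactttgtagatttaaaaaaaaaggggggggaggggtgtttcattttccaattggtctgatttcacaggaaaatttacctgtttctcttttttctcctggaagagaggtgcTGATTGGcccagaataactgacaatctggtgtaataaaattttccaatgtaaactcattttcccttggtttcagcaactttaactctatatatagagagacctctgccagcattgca
Lif: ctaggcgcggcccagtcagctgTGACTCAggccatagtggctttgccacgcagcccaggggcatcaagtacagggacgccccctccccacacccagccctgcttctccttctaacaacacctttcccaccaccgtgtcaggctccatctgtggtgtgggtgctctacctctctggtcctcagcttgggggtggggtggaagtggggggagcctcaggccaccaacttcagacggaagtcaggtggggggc

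The search covered 7 motifs on both strands: AP-1, GATA, FOXO, TCF/LEF, HIF, E2F and NF-Y. The letters searched for AP-1 were TGANTCA. Matches to FOXO needed the letters GTAAACA and those to TCF/LEF the letters CTTTGAT. For HIF the string was ACGTGC, for E2F it was TTCGCGC and for NF-Y it was CCAATCA. The GATA motif had several accepted forms, of which the first was AGATAA. The next accepted form ended differently, as AGATAG. Another began differently, as TGATAA. The last combined both changes, as TGATAG. A TCF/LEF match can share letters with a GATA match. A GATA match stood in 29.7% of the 27025 promoters in the table, in 19.7% of the 7594 promoters of compared genes, in 28.3% of 223 promoters of genes at least 2-fold higher and in 21.4% of 192 promoters of genes at least 2-fold lower. The shares for AP-1 were 7.82%, 5.10%, 10.8% and 7.29% in the same order, and those for TCF/LEF 3.72%, 2.63%, 2.24% and 4.69%. A match is a string of letters and no evidence that a factor binds there.

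Both libraries carried the RNA of CD4 T cells. Cd4, the coreceptor, was at 164 and 212 FPKM in the 5-day and the 3-week library, an order kept for every pair of values in the text. All 11 T cell markers were compared: 3 had log2 ratios above 0 and 8 below, from -1.36 to 0.37 with a median of -0.36, and Trat1, a receptor-associated adaptor gene, was at least 2-fold lower at 88.1 and 33.7 FPKM. Cd3e was at 203 and 206 FPKM, Gata3 at 72.8 and 93.8 FPKM, and Cd8a at 0.0330 and 0 FPKM. None of 8 NK cell markers and none of the 7 matched B cell markers reached a mean of 1 FPKM, and their summed levels were 2.82 and 0.485 FPKM (NK) and 1.66 and 0.241 FPKM (B). Of 14 myeloid and dendritic markers, 3 were compared. Csf1r was at 0.0130 and 0 and Lyz2 at 0.112 and 0.0989 FPKM, while Fcer1g was at 6.11 and 0.186 FPKM and Fcgr3 at 5.64 and 0.624 FPKM. Of 7 erythroid and platelet markers matched, 2 were compared, and Hba-a1, an alpha globin, was at 8.75 and 0.831 FPKM. Fcer1g, Fcgr3 and Hba-a1 were thus lower in the long culture, while Ctss, a protease gene of the myeloid list that T cells also express, was at 36.01 and 68.9 FPKM and set most of that list's summed level of 49.3 and 70.2 FPKM. The part of other cells in the results was not tested. Men1 itself was at 32.8 and 25.4 FPKM in wild-type cells and at 10.3 and 5.88 FPKM in the KO libraries. In RNA from a whole culture, fewer cells of a type and less RNA per cell cannot be told apart.

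Most genes had close levels in both cultures. Among all 10695 symbols, a difference of at least 2-fold was reached upward by 334 (3.12%) and downward by 301 (2.81%), on the scale of log2(FPKM + 1), which is the log2 ratio used throughout. Short RNA genes were set by symbol class, such as microRNA or small nucleolar RNA, or by a longest annotated transcript under 300 bases. The 136 compared supplied 41 of the higher and 36 of the lower symbols. FPKM is unreliable for short transcripts, and these genes are left out from here on. Of the 10559 genes left, 293 (2.77%) were higher and 265 (2.51%) lower by this measure, and these shares are the background for every list of genes. The median log2 ratio was 0.02, and 86.7% of genes lay within 1.5-fold. A 4-fold difference was reached by 52 genes upward and 46 downward, and an 8-fold difference by 11 and 12. The levels of the 2 libraries had a Pearson correlation of 0.959 over the 10559 genes, which share the same 2 libraries.

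**Figure D1:**
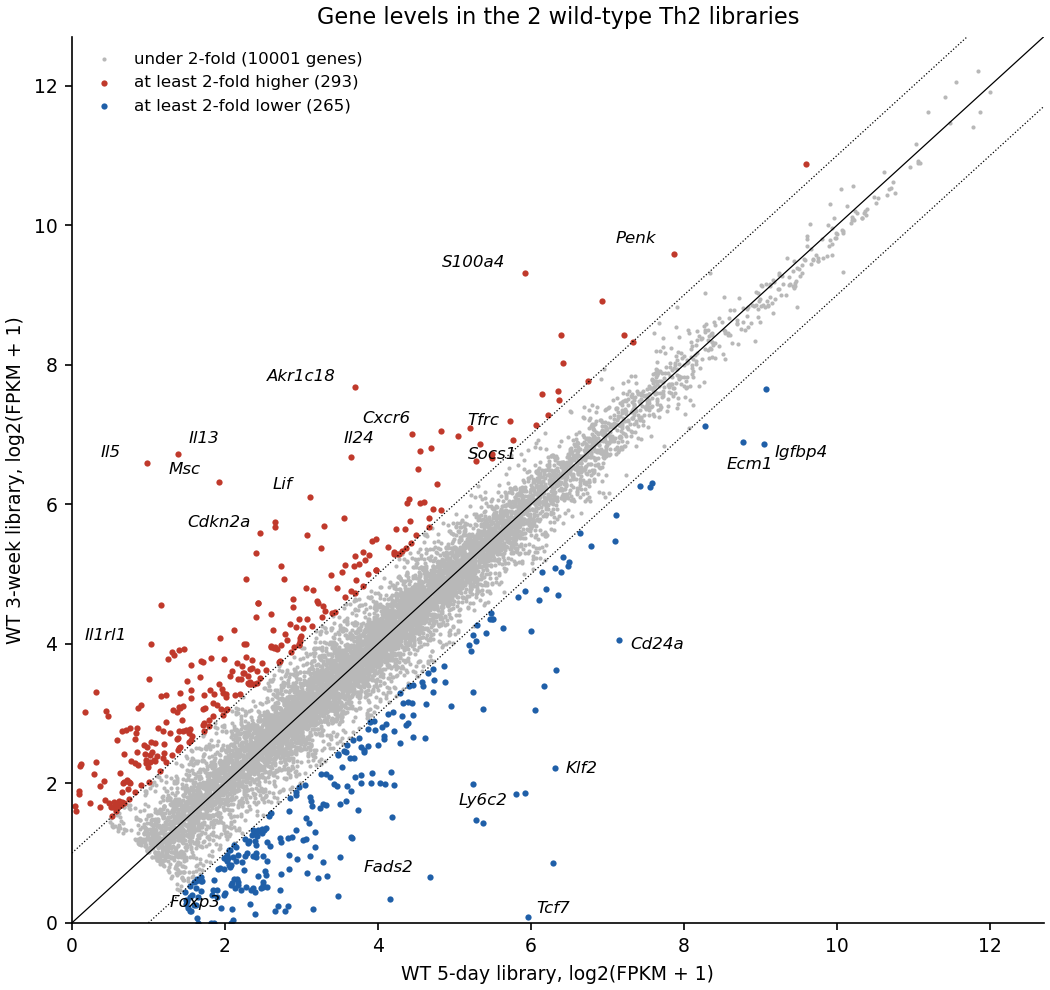
Level of each of 10559 genes in the WT 5-day library (horizontal axis) and the WT 3-week library (vertical axis), both as log2(FPKM + 1), 1 library each. Points outside the dotted lines differ at least 2-fold: 293 red genes are higher and 265 blue genes lower in the long culture. Tcf7 lies near the floor of the long culture and Klf2 above it at 3.64 FPKM, while Il5 and Il13 lie near the floor of the short one.

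Reads behind a value were estimated from FPKM, transcript length and a depth inferred from the steps between low values (20700000 and 23550000 reads for the 5-day and the 3-week library), so the 95% Clopper-Pearson intervals given with FPKM ratios are approximate and cover counting error only. They excluded a ratio of 1 for all 282 higher and all 248 lower genes for which a length was found. These genes were chosen for a 2-fold difference in the same 2 libraries. The choice largely fixed that outcome, which is therefore no support for them. The spread between cultures of the same kind is not known from these data. The kit for these libraries marks strand, but whether the counting used it is not stated. Of the 30 genes with the highest ratios 11, and of the 30 with the lowest 12, overlap a gene on the opposite strand, whose reads may be mixed with theirs. Il5, Msc, Htr1b, Trp73, Fgf2 and Tcf7 are among them. Overlaps on the same strand are found for S100a4, Lama5, Lta and Tcf7, among others.

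The Th2 cytokine genes were higher in the long culture as a group. Of 12 listed, 8 were compared, 7 were at least 2-fold higher and none lower, with a median log2 ratio of 2.61 against 0.02 over all genes. The filter favours high ratios here, since Il5, Areg, Csf2 and Il6 were below 1 FPKM in the short culture and passed through the long one. Over all 12 with no filter, 8 were at least 2-fold higher, none lower, and the median was 1.93. Il5, the eosinophil growth factor (chr11:53720794-53725106, plus strand), had the highest log2 ratio of all genes that reached 5 FPKM in either library: it was at 0.971 and 95.1 FPKM, 98.0-fold (interval 66.9 to 148) higher. Il13, the inducer of mucus and airway hyperreactivity (chr11:53631324-53634702, minus strand), was at 1.62 and 105 FPKM, 64.6-fold (interval 45.8 to 92.8). Both were close to the limit of 1 FPKM in the short culture. Il4 (chr11:53602982-53618669, minus strand) was at 6.41 and 21.9 FPKM, 3.42-fold (interval 2.50 to 4.69), a smaller difference than those of its neighbours.

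Other cytokines of the list followed the same direction. Il10, which dampens inflammation, was at 22.3 and 108 FPKM, 4.82-fold (interval 4.39 to 5.31). Il24, which lies in a cluster with Il10 on chromosome 1, was at 11.6 and 101 FPKM, 8.73-fold (interval 7.62 to 10.0). The 2 genes between them in the cluster were low: Il19 was at 1.28 and 0.257 FPKM and Il20 at 0 and 0.204 FPKM. Areg, the epidermal growth factor receptor ligand amphiregulin, was at 0.240 and 8.94 FPKM, and Csf2, which encodes GM-CSF, at 0.865 and 7.73 FPKM. Il6 was at 0.433 and 1.67 FPKM, short of 2-fold on the log2 scale with its added 1. The listed cytokines below the limit were Il9 (0 and 1.27 FPKM), Il3 (0 and 0.261 FPKM), Il31 (0.316 and 0.139 FPKM) and Tslp (0.103 and 0 FPKM).

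**Figure D2:**
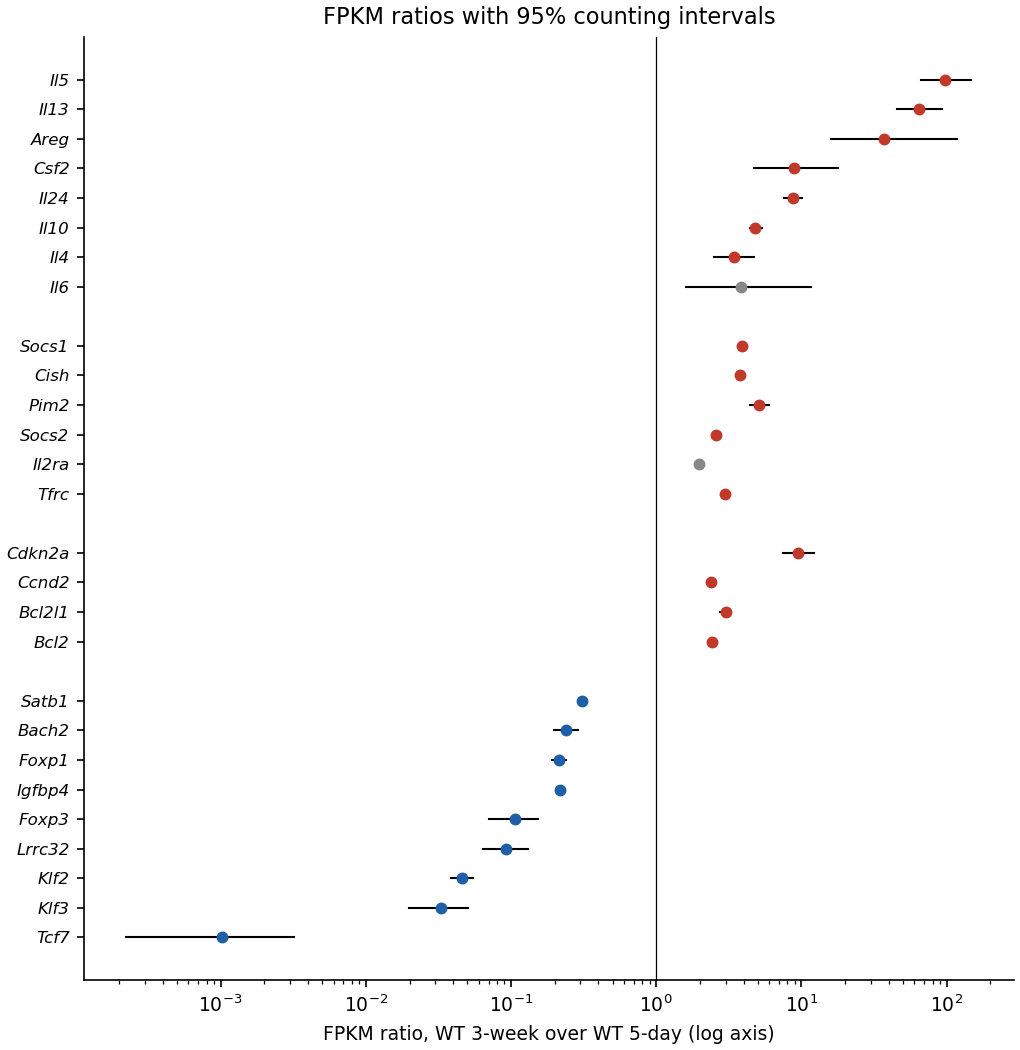
FPKM ratio of the WT 3-week to the WT 5-day library for selected genes (log axis), with approximate 95% counting intervals as bars that do not include variation between cultures. Red genes are at least 2-fold higher and blue genes at least 2-fold lower on the log2(FPKM + 1) scale, grey genes lie between; Il5 and Il13 stand at the right end and Tcf7, with an interval over an order of magnitude wide, at the left.

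Along the Th2 locus of chromosome 11 the differences were uneven. Kif3a, a kinesin subunit gene beside Il4, was at 8.30 and 22.98 FPKM, so that Kif3a, Il4, Il13 and Il5 formed a run of 4 higher genes interrupted by 1 gene under 2-fold. That gene is Rad50, a DNA repair gene that also holds the locus control region, and it was at 28.0 and 35.8 FPKM, 1.28-fold (interval 1.22 to 1.34). Irf1, beyond Il5, was lower in the long culture, at 71.5 and 47.5 FPKM. In log2 ratios, Rad50 stood at 0.35 between Il13 at 5.33 and Il5 at 5.61, with Il4 at 1.63 on the far side of Il13 and Irf1 at -0.58 on that of Il5.

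The factors that direct Th2 differentiation differed far less than the cytokines. At the 2-fold limit 3 of 20 compared genes were higher and 1 was lower, and the median was 0.04. Gata3 was at 72.8 and 93.8 FPKM, 1.29-fold (interval 1.24 to 1.34), and Stat6 at 39.3 and 37.0 FPKM. The 3 higher genes were Pparg, a lipid-sensing nuclear receptor (22.3 and 64.1 FPKM), Maf, an activator of Il4 (13.7 and 37.5 FPKM), and Rbpj, the DNA-binding partner of Notch (43.9 and 101 FPKM). Irf4 at 37.4 and 67.9 FPKM and Batf at 61.0 and 109 FPKM stayed under 2-fold. Satb1, a chromatin organizer, was the lower one, at 80.7 and 25.0 FPKM. Junb, an AP-1 subunit, was at 139.5 and 118 FPKM.

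Among Th2 surface and effector genes 5 of 15 compared were higher and 2 lower, with a median of 0.45. Il1rl1, the receptor for the alarmin IL-33, was at 1.05 and 14.9 FPKM, 14.2-fold (interval 10.7 to 18.9). Akr1c18, a steroid dehydrogenase that inactivates progesterone (chr13:4132615-4150654, minus strand), was at 11.95 and 204 FPKM, 17.1-fold (interval 15.0 to 19.6). Its neighbours Akr1c12 at 24.9 and 111 FPKM and Akr1c13 at 27.2 and 131 FPKM were higher too, and since these genes are close copies of each other the share of reads assigned to each is uncertain. Penk, the enkephalin precursor gene, was at 233 and 771 FPKM and Cysltr1, a leukotriene receptor gene, at 19.8 and 63.8 FPKM. Hpgds, which makes prostaglandin D2, was at 0.556 and 2.22 FPKM. The other side held Ecm1, a secreted matrix protein gene, at 437 and 118 FPKM, and Epas1, the gene of HIF-2 alpha, at 78.4 and 33.0 FPKM. Cyp11a1, the first enzyme of steroid synthesis, was high in both, at 242 and 336 FPKM.

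Genes of the other helper lineages did not share 1 direction. Of 17 Th1 genes compared 3 were higher and 1 lower, with a median of -0.24. Tbx21, the Th1 master regulator, was at 8.08 and 6.68 FPKM, and Ifng at 0.477 and 0.168 FPKM. The 3 higher ones, Lta, Tnf and Fasl, are all TNF family ligands, and the lower one was Eomes, at 1.798 and 0.360 FPKM. Rora was the 1 Th17 gene of 10 to reach a mean of 1 FPKM, and Il17a was at 0 and 0 FPKM. Of 8 genes of follicular helper cells 3 were higher, namely Pdcd1, Cd200 and Tox2, an HMG-box factor gene at 0.358 and 7.20 FPKM, while Bcl6 was at 1.60 and 0.794 FPKM and Slamf6, the 1 lower gene, at 40.4 and 7.35 FPKM.

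Genes of regulatory T cells split. Foxp3, their defining factor, was at 3.61 and 0.384 FPKM and Lrrc32, which carries latent TGF-beta on the surface, at 4.53 and 0.420 FPKM, both lower in the long culture. Ikzf4, the Eos factor that partners Foxp3, was at 1.76 and 14.1 FPKM, and Tnfrsf18, encoding GITR, at 147 and 344 FPKM, both higher. The list of 10 held 3 genes past 2-fold upward and 2 downward. Il2ra, the high-affinity chain of the IL-2 receptor, was at 324 and 638 FPKM and Ctla4 at 91.4 and 55.7 FPKM, both under 2-fold.

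TNF superfamily ligands were the other list with most members higher. At least 2-fold higher were 8 of 12 compared, 1 was lower, and the log2 ratios had a median of 1.23. With 5 added to each FPKM in place of 1, only 4 of these 12 were at least 2-fold higher and the median was 0.82. Lta, lymphotoxin alpha, was at 3.85 and 29.4 FPKM, 7.62-fold (interval 6.17 to 9.57), and its neighbour Tnf at 3.18 and 10.6 FPKM, 3.32-fold (interval 2.62 to 4.24). Ltb, the membrane partner of lymphotoxin alpha in the same cluster, went the other way at 137 and 56.2 FPKM, 2.44-fold (interval 2.28 to 2.61) lower. Tnfsf8, the CD30 ligand gene, was at 5.65 and 33.6 FPKM, Tnfsf11, the gene of RANKL, at 2.52 and 12.9 FPKM, and Tnfsf10, the gene of TRAIL, at 5.86 and 16.6 FPKM. The helper signal to B cells, Cd40lg, had 27.2 and 59.5 FPKM. Fasl was at 1.02 and 4.29 FPKM and Tnfsf14 at 4.20 and 9.75 FPKM.

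Their receptors showed no such lean, with 2 of 13 higher, 3 lower and a median of -0.16. The higher pair, Tnfrsf18 and Tnfrsf4 (OX40, 81.6 and 179 FPKM), are neighbours on chromosome 4. Tnfrsf1a, the main receptor for TNF on most cells, was at 10.1 and 0.303 FPKM, 33.4-fold (interval 19.6 to 61.5) lower, whereas Tnfrsf1b, its T cell counterpart, was at 22.4 and 19.3 FPKM. Cd27, a costimulatory receptor gene, was at 28.4 and 9.99 FPKM and Tnfrsf26 at 9.71 and 2.98 FPKM.

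In the SOCS, JAK and STAT list, 4 of 17 were at least 2-fold higher, none lower, and the median was 0.25. The higher genes, which IL-2 is known to induce through STAT5, were Pim2, a survival kinase (10.7 and 54.8 FPKM), Socs1 (32.0 and 125 FPKM), Cish (35.8 and 135 FPKM) and Socs2 (37.9 and 97.5 FPKM), the last 3 being feedback inhibitors of cytokine receptors. Socs3 was at 8.42 and 13.1 FPKM. The kinases and transducers themselves were closer together: Stat5a was at 21.3 and 25.3 FPKM, Jak3 at 74.6 and 88.9 FPKM, Stat3 at 33.9 and 50.3 FPKM and Jak2 at 32.1 and 17.0 FPKM. Lif, a ligand of the IL-6 family, was at 7.64 and 67.5 FPKM, 8.85-fold (interval 8.12 to 9.64), while 2 receptor genes of that family were lower, Il6ra at 6.08 and 1.33 FPKM and Il6st at 5.67 and 1.22 FPKM. Il10ra was at 10.1 and 26.9 FPKM. Of 23 cytokine receptor genes 2 were higher and 2 lower, with a median of -0.26.

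Naive and central memory genes held the lowest ratios. Of 16 compared, 11 were lower by at least 2-fold, 1 was higher, and the median log2 ratio was -1.34. Tcf7, encoding TCF-1 (chr11:52252371-52283014, minus strand), was at 61.3 and 0.0622 FPKM, a log2 ratio of -5.87. An estimated 3 reads stood behind the 3-week value, so the FPKM ratio of 986 has a counting interval from 314 to 4451. Klf2, which maintains quiescence and the expression of homing receptors (chr8:72319033-72321656, plus strand), was at 78.6 and 3.64 FPKM, 21.6-fold (interval 18.3 to 25.8) lower.

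The list held further lower genes. Klf3, a related factor, was at 5.46 and 0.180 FPKM, Bach2, a repressor of effector genes, at 2.96 and 0.712 FPKM, and Foxp1, another quiescence factor, at 10.998 and 2.35 FPKM. Igfbp4, a secreted binding protein for insulin-like growth factors, was among the abundant lower genes, at 527 and 115 FPKM. Id3 was at 41.7 and 16.9 FPKM and Foxo1 at 13.6 and 5.89 FPKM. Lef1, the relative of TCF-1, was at 67.5 and 44.1 FPKM, 1.53-fold (interval 1.46 to 1.60) lower, and Ccr7, the lymph node chemokine receptor, at 107 and 75.3 FPKM, so neither passed 2-fold. Il7r was at 72.1 and 46.5 FPKM. The single higher member was Bcl2, a survival gene, at 12.1 and 29.2 FPKM. Of the FOXO and quiescence list, which shares Klf2, Foxo1 and Foxp1, 5 of 18 were lower and none higher, with Tsc22d3 at 23.1 and 9.56 FPKM, Ccng2 at 44.2 and 19.4 FPKM and Txnip level at 96.1 and 95.3 FPKM.

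**Figure D3:**
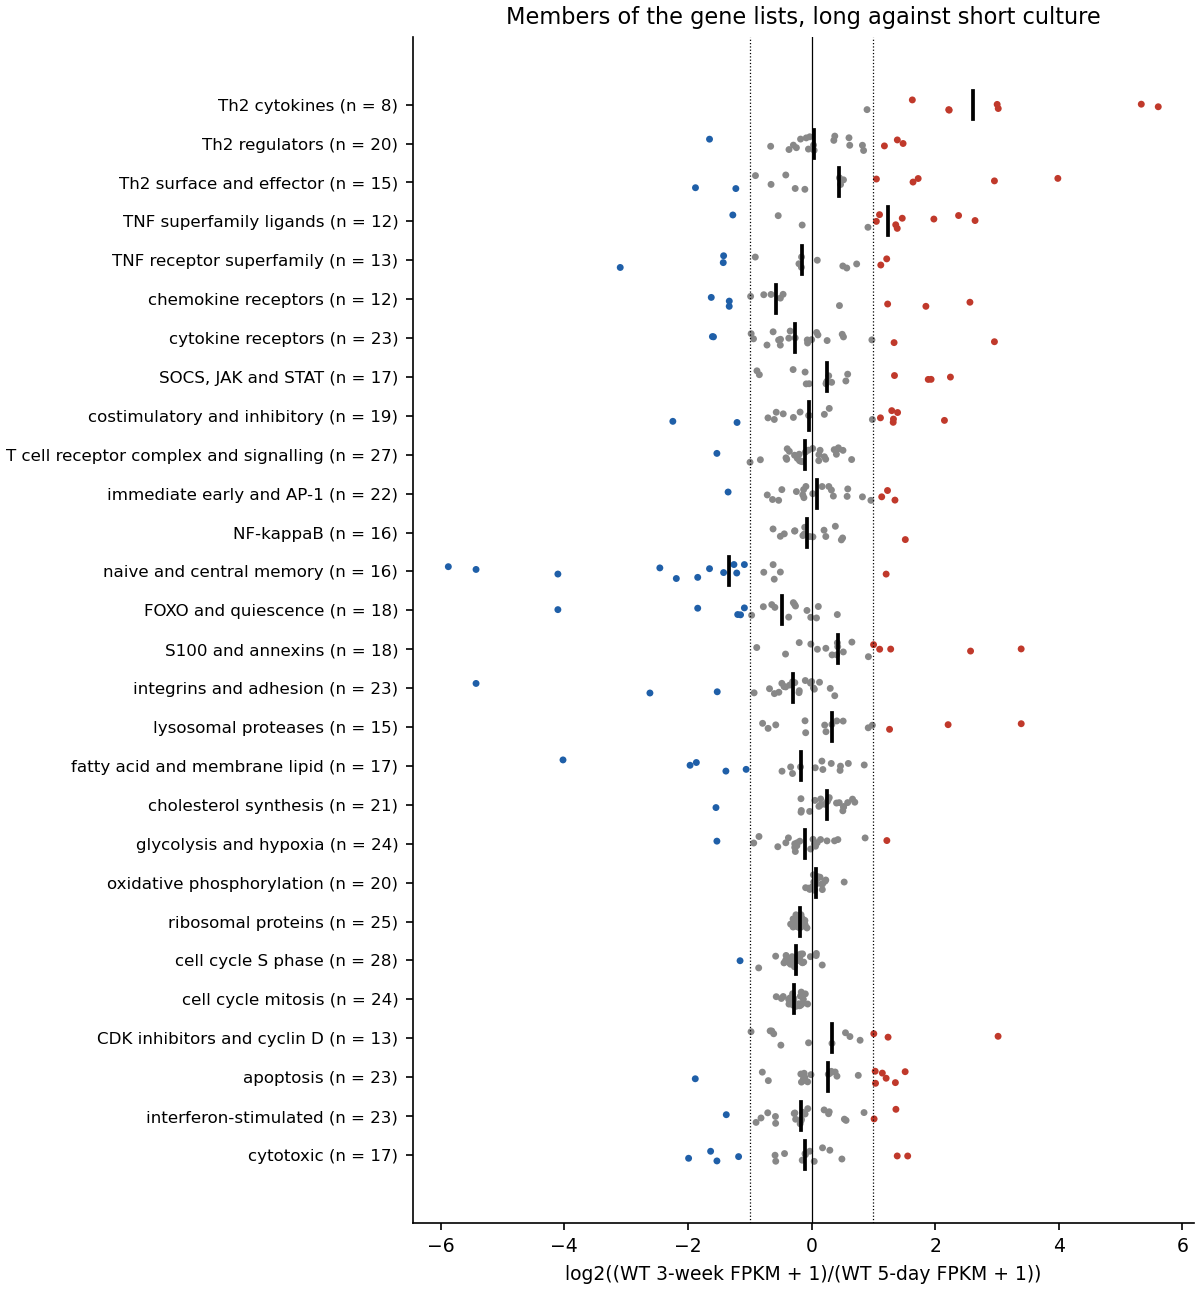
Log2 ratio of every compared member of 28 gene lists, 1 point per gene, with the list median as a black bar and 2-fold marked by dotted lines (red higher, blue lower, grey under 2-fold). Th2 cytokines (median 2.61) and TNF superfamily ligands (1.23) lie to the right, naive and central memory genes (-1.34) to the left, and ribosomal protein, cell cycle and oxidative phosphorylation genes close to 0.

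Genes of migration and adhesion were mixed. Cxcr6, a tissue-homing chemokine receptor gene, was at 20.9 and 128 FPKM, 6.14-fold (interval 5.68 to 6.65), and its neighbour Xcr1 was at 0.394 and 2.27 FPKM. Ccr1 was at 2.20 and 10.5 FPKM. Lower were Cxcr4 at 136 and 43.5 FPKM, Ccr2 at 11.9 and 4.12 FPKM and S1pr4 at 89.5 and 35.0 FPKM, while the Th2 receptors Ccr4 and Ccr8 were at 106 and 66.7 and 37.6 and 51.8 FPKM. That made 3 of 12 higher and 3 lower. No integrin or adhesion gene of 23 was higher, and lower ones included Itga4, the alpha chain of VLA-4 (19.9 and 6.28 FPKM), and Cd9, a tetraspanin (5.90 and 0.128 FPKM).

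Calcium-binding S100 and annexin genes leaned upward, with 5 of 18 higher, none lower and a median of 0.42. S100a4, linked to motility, was at 59.6 and 635 FPKM, 10.7-fold (interval 9.57 to 11.9). It forms a run of higher genes on chromosome 3 with S100a5 at 1.47 and 13.7 FPKM and S100a6 at 769 and 1871 FPKM. The adjacent gene of the cluster, S100a3, which is outside the list, was lower, at 13.1 and 4.56 FPKM. S100a11 at 159.7 and 321 FPKM and Anxa4 at 6.91 and 16.0 FPKM were the other higher members. Among lysosomal proteases and their inhibitors 3 of 15 were higher and none lower, namely Ctsh, cathepsin H (1.25 and 22.6 FPKM), Napsa, napsin A (0.825 and 7.44 FPKM), and Lgmn, legumain (8.73 and 22.3 FPKM).

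Receptors that restrain or aid activation included 6 of 19 higher and 2 lower, with a median of -0.04. Pdcd1, encoding PD-1, was at 4.38 and 22.9 FPKM, Lag3 at 4.04 and 11.4 FPKM and Havcr2, encoding TIM-3, at 2.47 and 6.51 FPKM. The ligand genes Pdcd1lg2 at 1.07 and 4.44 FPKM and Cd80 at 3.52 and 10.3 FPKM stood with them, and so did Cd200 at 0.959 and 3.90 FPKM. Nt5e, the CD73 ectoenzyme that makes adenosine, was lower at 5.57 and 0.387 FPKM, and Cd226 at 3.52 and 0.961 FPKM. Tigit was at 27.6 and 22.3 FPKM, Cd28 at 105 and 70.4 FPKM and Icos at 189 and 124 FPKM.

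The receptor machinery itself was close in both libraries. Of 27 genes of the T cell receptor complex and its signalling none was higher and 1 lower, with a median of -0.10. Zap70 was at 61.5 and 81.6 FPKM and Lck at 183 and 137 FPKM. The lower gene was Cblb, a ubiquitin ligase that limits receptor signals, at 19.6 and 6.15 FPKM. Immediate early and AP-1 genes held 3 higher (Fosl2 at 5.05 and 14.4 FPKM, Atf3 at 2.73 and 7.73 FPKM and Dusp6 at 24.5 and 55.0 FPKM) and 1 lower of 22, Dusp4 at 18.8 and 6.77 FPKM. Fos was at 1.57 and 2.12 FPKM and Egr1 at 1.75 and 2.51 FPKM. Nfkbiz, at 3.27 and 11.2 FPKM, was the 1 higher gene of 16 in the NF-kappaB list.

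Proliferation genes were slightly lower. All 24 mitosis genes had log2 ratios below 0, from -0.57 to -0.06, none past 2-fold, with a median of -0.29, and 25 of 28 S phase genes lay below 0 with a median of -0.25. Mki67 was at 194 and 152 FPKM and Mcm5 at 143 and 112 FPKM. Ccne1, cyclin E1, was the 1 S phase gene past 2-fold, at 59.5 and 26.1 FPKM. The ribosomal protein genes were all 25 below 0 as well, within -0.34 to -0.07. Cdkn2a, the locus of the growth inhibitors p16 and p19ARF (chr4:89274471-89294653, minus strand), was at 5.29 and 49.9 FPKM, 9.44-fold (interval 7.41 to 12.1) higher, and a value per symbol does not separate these products. Ccnd2 was higher at 43.8 and 105 FPKM, and Rb1 at 20.6 and 42.4 FPKM, while Ccnd3 was at 268 and 135 FPKM and Cdkn1b at 39.9 and 25.2 FPKM.

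Survival genes of the BCL2 family were among 6 of 23 apoptosis genes at least 2-fold higher. Bcl2l1, encoding BCL-XL, was at 12.9 and 38.8 FPKM, 3.00-fold (interval 2.74 to 3.29). Bcl2a1a, Bcl2a1b and Bcl2a1d, near-identical copies whose reads may be split arbitrarily, were at 3.92 and 9.87, 9.59 and 20.6 and 6.82 and 15.0 FPKM. Bik, a pro-apoptotic member, was higher too, at 2.26 and 7.36 FPKM. Bcl2l11, encoding the death inducer BIM, was the 1 lower gene of the list, at 8.08 and 1.47 FPKM, 5.51-fold (interval 4.43 to 6.95) lower. Mcl1 was at 75.5 and 69.4 FPKM and Bax at 193 and 233 FPKM.

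Lipid genes mostly stayed under 2-fold, and most of the lower fatty acid genes were desaturases. Fads2, the delta-6 desaturase of polyunsaturated fatty acids (chr19:10062765-10101746, minus strand), was at 24.7 and 0.582 FPKM, 42.4-fold (interval 31.3 to 60.2) lower, and its neighbour Fads1 at 14.5 and 6.43 FPKM. Scd1 and Scd2, stearoyl-CoA desaturases that also lie side by side, were at 4.66 and 0.451 and 109.6 and 41.4 FPKM. With Alox5ap at 7.35 and 1.297 FPKM these made 5 of 17 fatty acid genes lower and none higher. Fasn was at 29.2 and 40.6 FPKM. Cholesterol synthesis genes were above 0 in 16 of 21 cases, with a median of 0.26 and none at least 2-fold higher, as with Cyp51 at 9.82 and 16.6 FPKM. The 1 lower gene of that list was Abcg1, which exports sterol, at 4.66 and 0.939 FPKM. Tfrc, the transferrin receptor that takes up iron, was at 39.2 and 116 FPKM and was the 1 gene of 20 reference genes past 2-fold.

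Glycolysis, respiration and stress genes mostly stayed under 2-fold. Glycolysis and hypoxia genes had 1 of 24 higher, Bnip3 at 25.3 and 60.3 FPKM, and 1 lower, Vegfa at 3.45 and 0.542 FPKM. Oxidative phosphorylation had none of 20 past 2-fold and a median of 0.08. Trib3, a stress pseudokinase at 14.005 and 3.01 FPKM, Atf5 at 20.9 and 5.33 FPKM and Chac1 at 2.98 and 0.895 FPKM were the 3 lower genes of 18 in the amino acid and ATF4 list. Among glycan transferases St3gal6, which caps glycans with sialic acid, was at 16.9 and 0.273 FPKM, 61.7-fold (interval 42.1 to 96.7) lower, and St8sia1 at 8.28 and 0.566 FPKM, whereas Galnt3 was at 1.35 and 6.36 FPKM and Chst11 at 0.765 and 5.23 FPKM.

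Cytotoxic genes held 2 higher and 4 lower of 17, with a median of -0.10. Gzma at 485 and 322 FPKM and Gzmb at 599 and 539.7 FPKM were abundant in both libraries. Gzmc, Gzmd and Gzmg, close copies in a cluster on chromosome 14, were at 8.96 and 2.21, 3.27 and 0.479 and 1.92 and 0.289 FPKM. Nkg7, a granule membrane protein gene, was higher at 14.1 and 43.5 FPKM, as was Fasl, and Xcl1, a chemokine gene, was lower at 4.65 and 0.424 FPKM. The interferon-stimulated list of 23 held 2 higher genes and 1 lower one: Mx1 was at 5.06 and 14.6 FPKM, Ifi35 at 18.9 and 39.1 FPKM and Ifit1 at 1.92 and 0.121 FPKM. With upper-quartile or median-of-ratios scaling 1 of the 2 higher genes was left. With 5 added to each FPKM in place of 1, 0 genes of the list passed 2-fold.

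Several other genes ranked among the 30 highest or lowest ratios. Msc, a basic helix-loop-helix repressor gene (chr1:14753346-14755992, minus strand), was at 2.78 and 78.5 FPKM, 28.2-fold (interval 22.8 to 35.2), next in rank to Il5 and Il13. It was the 1 higher gene of 11 in the list of Id, E and bHLH factors, where 2 were lower, Id3 and Mxi1, and the median was -0.23. Htr1b, a serotonin receptor gene, was at 4.50 and 47.0 FPKM, Lama5, a laminin chain gene, at 5.31 and 52.9 FPKM, and Sema3e, a guidance ligand gene, at 0.122 and 7.13 FPKM. Etv5, an ETS factor gene, was at 1.39 and 12.73 FPKM and Trp73, the p53 relative, at 1.52 and 13.2 FPKM. Fgf2 was at 0.389 and 6.78 FPKM but overlaps Nudt6 on the opposite strand. Among the lowest were Ly6c2 (59.5 and 2.65 FPKM), whose near copy Ly6c1 was at 83.9 and 67.2 FPKM and whose Ly6 list had 1 of 8 higher and 3 lower, Add3, a membrane skeleton protein gene (54.8 and 2.58 FPKM), and Cd24a, a surface glycoprotein gene (141 and 15.5 FPKM). Rasgrp2, an activator of RAP1 and integrins, was at 65.1 and 7.31 FPKM, and Nts, the neurotensin precursor gene, at 70.9 and 9.55 FPKM. Ms4a4b, Ms4a6b and Ms4a6c, related membrane protein genes in 1 cluster, were at 40.5 and 1.70, 37.9 and 1.78 and 9.10 and 0.585 FPKM.

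The most abundant transcripts were much the same in both libraries. B2m, the light chain of class I molecules, was at 3666 and 4741 FPKM, Tmsb4x, an actin-binding peptide gene, at 2998 and 4238 FPKM, and Eef1a1, a translation factor gene, at 4078 and 3847 FPKM. Actb was at 2726 and 3659 FPKM, Lgals1 at 2341 and 3142 FPKM, Vim at 2842 and 2821 FPKM, Rpl41 at 3737 and 3142 FPKM and Rplp1 at 3491 and 2701 FPKM. These 8 genes were among the 10 highest of each library, joined by Ptma and Rps15 in the short culture and by Pfn1 and Tpt1 in the long one.

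Some genes with a difference lay near another with the same direction. Of 281 higher genes with a position, 66 (23.5%) had another higher gene within 100 kb, against 6.04% of all 9533 placed genes with a higher gene that near. For lower genes the counts were 39 of 248 (15.7%) against 6.29%. Leaving out neighbours that overlap left 62 and 35, for which no share over all placed genes was computed. The runs numbered 29 for higher and 18 for lower genes. Besides those named above, they include Socs1 with Tnp2, Spp1 (14.7 and 44.2 FPKM, osteopontin) with Pkd2, F2r with F2rl1, Naip2 with Naip5, and, on the lower side, Tnfrsf1a with Cd9, Id3 with E2f2 and Add3 with Mxi1. Several runs are families of close copies, for which the assignment of reads is uncertain.

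The same pair of cultures from Menin KO cells shares no library with the wild-type pair, and its values are given beside it with no test of the difference. There, 2-fold was passed upward by 3.02% and downward by 4.04% of the 10559 genes. Of the 293 genes higher in wild-type cells, 115 were also at least 2-fold higher in KO cells, which is 39.2% of the wild-type and 36.1% of the 319 KO genes, and 230 (78.5%) had the same sign. Of the 265 lower genes 98 were lower in both, 37.0% of the wild-type and 22.95% of the 427 KO genes, with 212 of the same sign. The share of all 10559 genes with each sign in KO cells was not computed, so these sign counts have no background. The median log2 ratio of all these genes in KO cells was -0.07. The log2 ratios of the 2 genotypes had a Pearson correlation of 0.411 over genes. The opposite direction, past 2-fold in both, was seen for 3 genes higher and 11 genes lower in wild-type cells.

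**Figure D4:**
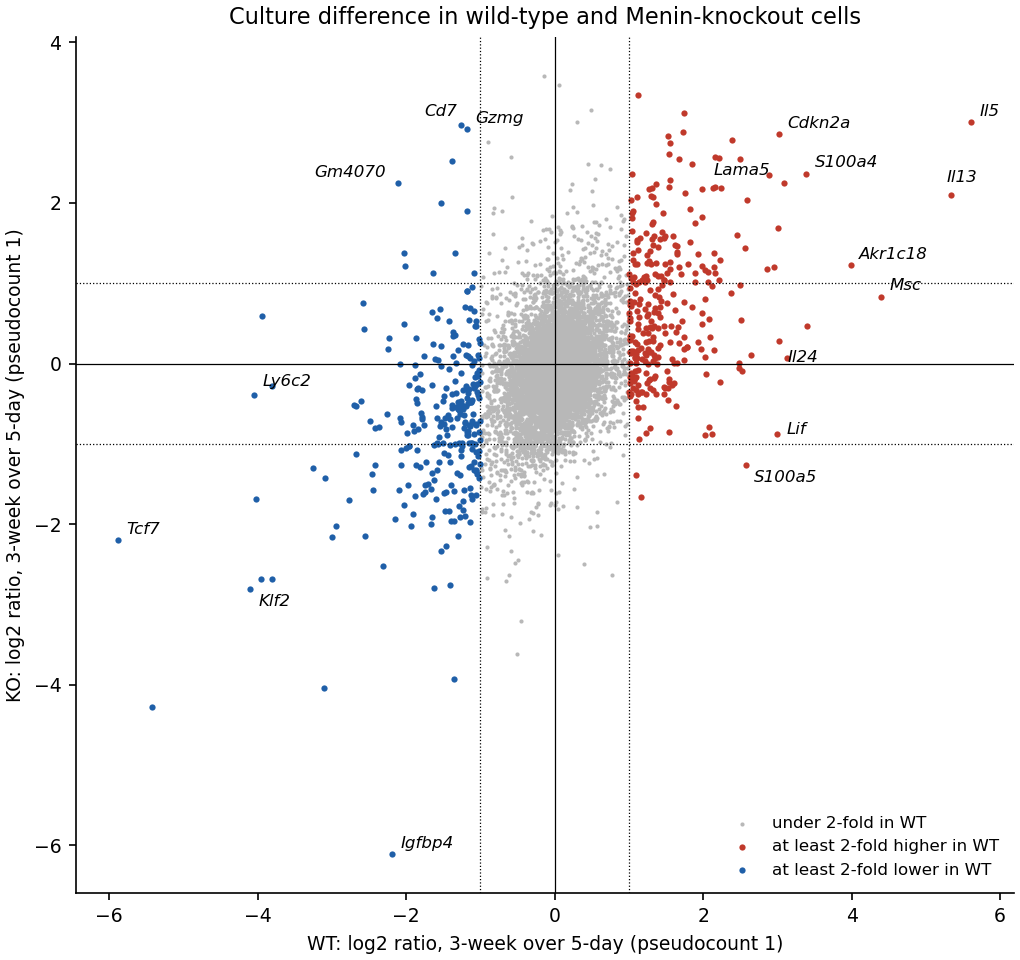
Log2 ratio of long to short culture in wild-type cells (horizontal axis) and in Menin KO cells (vertical axis), 1 point per gene over 10559 genes and 1 library for each genotype and culture. Dotted lines mark 2-fold; Il5, Il13, S100a4 and Cdkn2a lie in the upper right, Tcf7 and Klf2 in the lower left, and Cd7, Gzmg and Gm4070 in the upper left.

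Part of the pattern was present in both genotypes. Cdkn2a in KO cells was at 6.01 and 49.7 FPKM, nearly the values of wild-type cells, and Pim2 at 10.2 and 50.1 FPKM. S100a4 was at 532 and 2743 FPKM, high in both KO libraries. Klf2 was at 42.0 and 5.15 FPKM and Tcf7 at 12.5 and 1.95 FPKM, lower in the long culture as in wild-type cells. Igfbp4 was at 93.4 and 0.372 FPKM, a log2 ratio of -6.11 beside -2.19 in wild-type cells.

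The 8 Th2 cytokines had a median log2 ratio of 0.72 in KO cells, with 4 at least 2-fold higher, beside 2.61 and 7 in wild-type cells, and this difference was not tested. These 8 were kept by their wild-type levels, and Il5, Areg, Csf2 and Il6 passed only through the long wild-type culture. That choice raises the wild-type median, which was 1.93 over all 12 listed with no filter, so the 2 medians are not selected alike. Il5 was at 1.91 and 22.4 FPKM in KO cells, Il13 at 3.68 and 19.1 FPKM and Il4 at 9.71 and 6.395 FPKM, so that Il4 was higher in the long culture of wild-type cells and lower in that of KO cells. Lif was at 6.42 and 3.04 FPKM, Il24 at 7.50 and 9.31 FPKM and Csf2 at 1.48 and 1.11 FPKM, levels close to or below those of the short KO culture. Lta (2.27 and 2.50 FPKM) and Cd40lg (3.36 and 3.57 FPKM) were nearly level between the KO cultures. Htr1b was at 2.81 and 2.98 FPKM, Etv5 at 1.14 and 1.01 FPKM and Fgf2 at 0.179 and 0.188 FPKM. On the lower side Bcl2l11 was at 10.9 and 9.54 FPKM and Nt5e at 1.74 and 2.10 FPKM in KO cells. The S phase genes, at a median of -0.25 in wild-type cells, had 13 of 28 at least 2-fold lower in KO cells, and the mitosis genes 10 of 24.

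**Figure D5:**
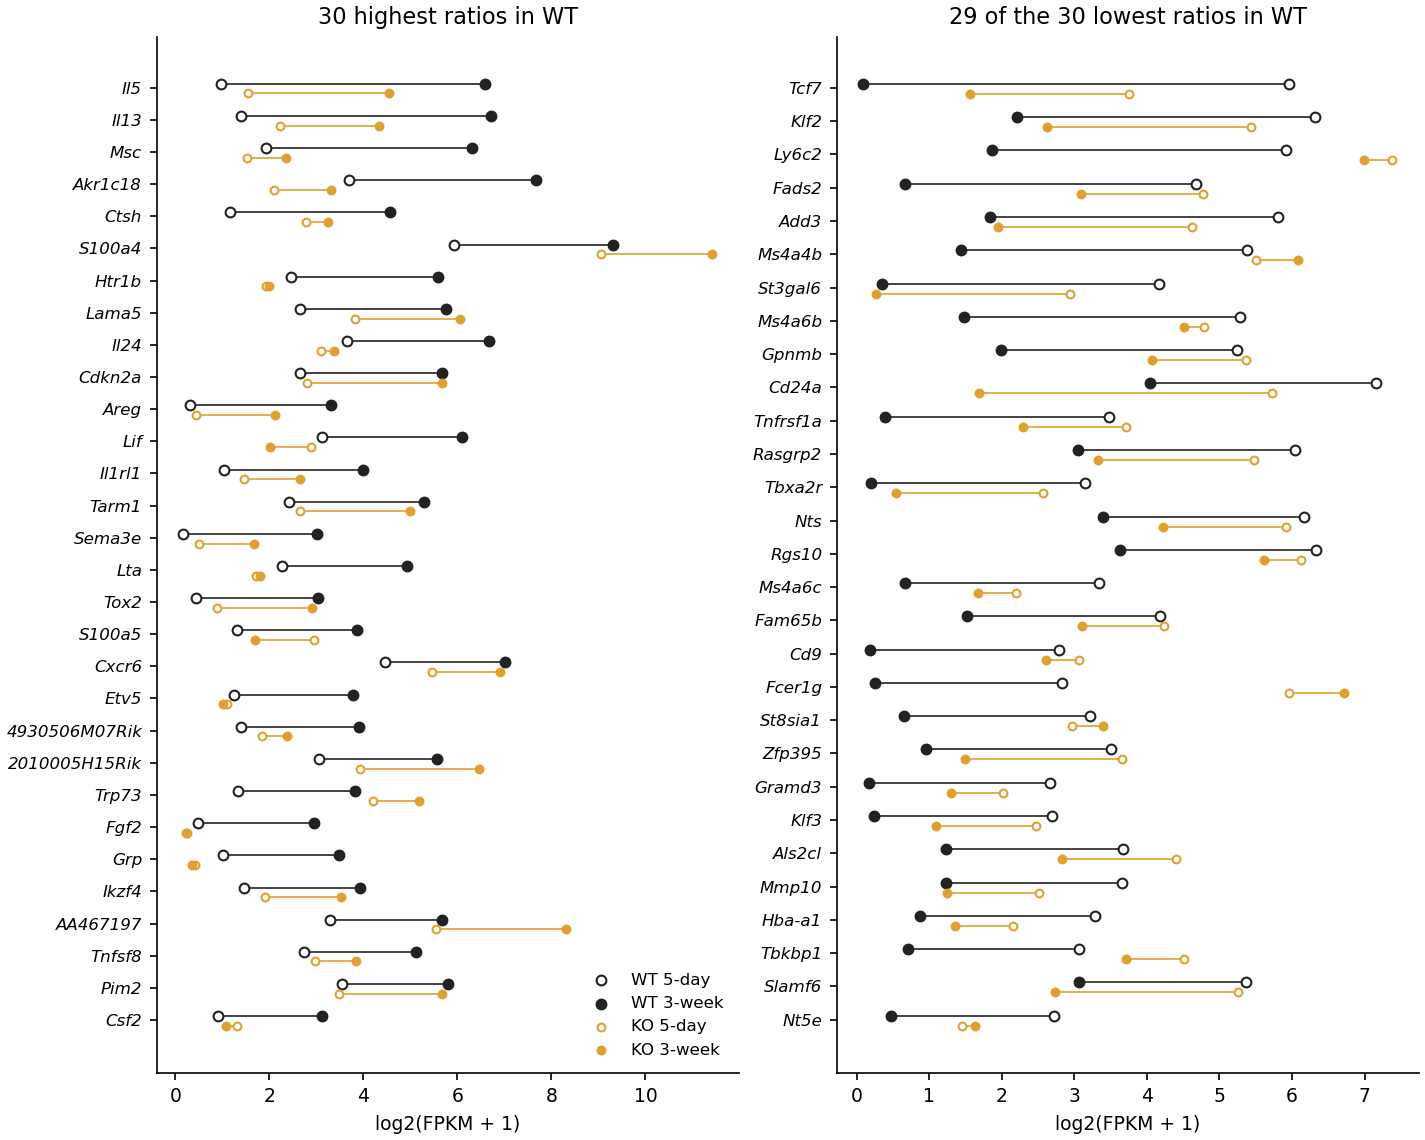
Levels as log2(FPKM + 1) of the 30 genes with the highest (left) and 29 of the 30 with the lowest (right) log2 ratio in wild-type cells, among genes with at least 5 FPKM in either wild-type library; black symbols are wild-type and orange symbols KO libraries, open for 5-day and filled for 3-week, 1 library each. In KO cells 25 of the 30 highest and 26 of the 30 lowest had the same sign, and 16 and 18 of them passed 2-fold. The share of all genes with each sign was not computed.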

How the data were processed

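Polyadenylated RNA of 4 libraries was measured, 1 per genotype and culture, and the 2 wild-type libraries were compared. The authors deposited 1 FPKM value per line and gene symbol; per the labels' protocols, the reagent for extraction was TRIzol and the library kit TruSeq Stranded mRNA. Per the submitters' processing notes, Bowtie 0.12.8, TopHat 1.3.2 and Cufflinks 2.0.2 were used with mm10. Settings of these tools: not given in the sources used here.

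Lines of the same symbol were summed (240 symbols on 702 lines), symbols with a mean of at least 1 FPKM were kept, and log2((3-week + 1)/(5-day + 1)) was computed with pandas 2.3.3. A gene was called at 2-fold or more on that scale. Short RNA genes, set by symbol class or by a longest annotated transcript under 300 bases, were left out of list counts. FPKM carry no counts: depth was inferred from low values, of which 59.0% to 61.6% came out as whole reads with GENCODE M21 lengths less 200 bases, too few for a count test. Ribosomal protein genes took 13.5% of summed FPKM in the 5-day and 11.9% in the 3-week library, and short RNA genes 9.64% and 8.98%. The ratio script was tested on simulated data. Gene coordinates are those of GENCODE M21 (GRCm38), and promoters are from RefSeq (GRCm38.p6).

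The members, the 56 gene lists, the motifs and the rules were chosen with earlier results of these data known, and the counting-interval alternative and the motif set after seeing the data. Named were the 30 highest and 30 lowest ratios among genes that reached 5 FPKM in a wild-type library, the 10 highest levels per library, Men1, Gata3, Il4, Il5, Il13 and members of lists with the most extreme ratios; others named were chosen after their values were seen. Some genes these rules name are not reported here. List symbols absent from the files were matched through RefSeq synonyms. Alternatives covered the pseudocount, the filter, the scaling, symbols on several lines and short RNAs.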

Additional observations from a re-analysis of the deposited data

Results flagged for a closer look

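In 14 of the 10559 genes the 2 genotypes differed in opposite directions between the cultures, each at least 2-fold. With 1 library for each genotype and culture the difference was not tested. Only genes with a mean of at least 1 FPKM in the wild-type libraries were counted. Some below that limit also passed 2-fold both ways. In wild-type and KO cells Prf1 had log2 ratios of -1.31 and 1.82, Gzme -1.06 and 2.17, and Txk -1.04 and 1.25. Opposite differences were found in 11 of the 265 genes lower in wild-type cells and in 3 of the 293 higher ones. As a background, the KO pair passed the 2-fold limit upward in 3.02% and downward in 4.04% of the 10559 genes. The split of 11 and 3 was not tested against these shares. In 11 of the 14 the long culture was lower in wild-type and higher in Menin KO cells. Gzmc, Gzmd and Gzmg, close copies in 1 cluster, belong here: Gzmc had a log2 ratio of -1.63 in wild-type and 1.13 in KO cells, Gzmd -1.53 and 2.00, and Gzmg -1.18 and 2.91. Their KO levels reached 202 and 811 FPKM for Gzmd, against 3.27 and 0.479 FPKM in wild-type cells. Cd7, a lymphocyte surface receptor gene, stood at -1.25 and 2.97, Fcgr3, a low-affinity Fc receptor gene, at -2.03 and 1.37, and Hopx, a homeodomain-only factor gene, at -1.09 and 1.12.

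Another 5 of the 11 follow: Ifit1 had ratios of -1.38 and 2.52, Mndal -2.02 and 1.22, and Pydc3 -1.35 and 1.38. Mndal lies in a run of lower genes with Ifi203 on chromosome 1. Gm4070 had -2.12 and 2.25, and Hsd11b1, which regenerates active glucocorticoid, -1.18 and 1.90. The other 3 genes were higher in the long culture of wild-type cells and lower in that of KO cells: S100a5 at 2.57 and -1.26, Sval1 at 1.16 and -1.66, and P4ha3, a collagen prolyl hydroxylase gene, at 1.09 and -1.39. The S100a5 ratio in wild-type cells rests on an estimated 7 and 74 reads.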

How the results depend on the processing

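The counts of genes past 2-fold depended most on the pseudocount and the filter: adding 5 in place of 1 left 151 higher and 125 lower genes of 334 and 301, and a mean of at least 5 FPKM left 162 lower genes. With 0.1 the counts were 427 and 412, with no filter 352 and 330, with upper-quartile scaling 315 and 318, with median-of-ratios scaling 322 and 306, and with a counting interval wholly past 2-fold 273 and 259; these stayed within 1.5 times. No alternative reversed the log2 ratio of a gene named for the rank of its ratio, or of Men1, Gata3, Il4, Il5 and Il13. The median of the myeloid and dendritic marker list turned to 0.92 at a mean of at least 5 FPKM, where 1 member was left. That filter also took the Treg median from -0.12 to 0.52. The median of Th2 cytokines was 1.73 with 5 added and 1.93 with no filter, in place of 2.61, and that of Th2 surface and effector genes was 0 with no filter, in place of 0.45. Adding 5 left 1 of 6 higher genes among receptors that restrain or aid activation, 2 of 6 in apoptosis and 3 of 5 in S100 and annexins, and 0 of 4 lower cytotoxic genes, 2 of 5 in fatty acids and 3 of 5 in FOXO and quiescence. Either scaling left 4 of 5 higher genes in S100 and annexins and 2 of 3 among CDK inhibitors and D cyclins. Lower genes rose with either scaling from 3 to 4 in chemokine receptors and from 1 to 2 in the Th1 list, among others. No paired analysis was possible because each genotype and culture has 1 library. Leaving out a library was not possible for the same reason. Precision is limited by the single library per side, and variation between cultures is unknown.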
